A study of Mus musculus with 8 samples.

Results

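The genes described are the 2 cardiac myosin heavy chains, Myh6 and Myh7, and the 2 striated muscle actins, Acta1 and Actc1. They were taken by gene symbol from a bead array table of the mouse left ventricle, in which they are 4 of 18120 gene symbols and hold 6 of 25697 probes. Myh6 and Actc1 have 2 probes each, Myh7 and Acta1 1 each, and no probe was listed under an older name of these genes. Tissue was the left ventricle together with the septum. All mice were Swiss Agouti in background and 12 months old. The 4 heterozygotes were knock-in mice that carried 1 altered allele. The 4 controls were wild-type littermates of the same age, and each mouse gave 1 array of total RNA. The comparison asks how a genotype linked in the study's title to fibrosis and hypertrophy is reflected in the ventricle at that age.

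Myosin heavy chain is the motor of the thick filament and actin is the track of the thin filament on which it pulls. The adult mouse ventricle is built mainly from the fast alpha chain of Myh6, while the slow beta chain of Myh7 is the main chain of the fetal ventricle. Actc1 encodes cardiac alpha-actin, and Acta1 encodes skeletal alpha-actin, which is also made in the fetal heart. A return of Myh7 and Acta1 in the adult mouse ventricle is a classical marker of pressure-overload hypertrophy.

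In the RefSeq table of GRCm38.p6 all 4 genes lie on the minus strand. Myh6 and Myh7 are neighbours on chromosome 14, with Myh7 upstream and no other protein-coding gene between them, while Acta1 is on chromosome 8 and Actc1 on chromosome 2. The noncoding RNA genes Mhrt and Gm31251 overlap Myh7, and whether its probe also reads them was not examined. Each myosin gene also holds a microRNA gene on its own strand, Mir208a inside Myh6 and Mir208b inside Myh7. Their mature 3p sequences from RefSeq (GRCm38.p6) are shown because they are transcribed with the 2 myosin genes measured here, and capitals mark the seed, bases 2 to 8. No probe of the array carries a Mir208 symbol.
mmu-miR-208a-3p: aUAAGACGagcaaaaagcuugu
mmu-miR-208b-3p: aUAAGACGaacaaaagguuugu
These sequences share the same seed and differ at 3 of 22 positions, G10A, A16G and C18U, counted from 1 at the 5′ end with the miR-208a base first.

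The 250 bases before a RefSeq start of each gene are shown as promoter sequence of the 4 members. The RefSeq gene of Myh6 reaches further upstream than the start used, so its window lies inside the gene. Capitals mark 3 motifs searched on both strands: the CArG box, bound by serum response factor, the MCAT element CATTCC, bound by TEAD factors and marked as its reverse complement where it lies on the other strand, and TATAAA. The marked matches do not overlap each other.
Acta1, chr8:123894776-123895025: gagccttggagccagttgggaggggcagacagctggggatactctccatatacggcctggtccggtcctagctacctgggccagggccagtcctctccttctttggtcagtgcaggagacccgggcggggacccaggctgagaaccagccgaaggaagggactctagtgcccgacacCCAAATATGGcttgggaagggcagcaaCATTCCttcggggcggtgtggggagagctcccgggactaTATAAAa
Actc1, chr2:114052876-114053125: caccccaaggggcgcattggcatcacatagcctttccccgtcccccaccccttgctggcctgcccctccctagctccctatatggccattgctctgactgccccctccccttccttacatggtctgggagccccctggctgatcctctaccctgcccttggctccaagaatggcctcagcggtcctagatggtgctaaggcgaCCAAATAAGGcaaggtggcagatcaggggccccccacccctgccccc
Myh6, chr14:54966608-54966857: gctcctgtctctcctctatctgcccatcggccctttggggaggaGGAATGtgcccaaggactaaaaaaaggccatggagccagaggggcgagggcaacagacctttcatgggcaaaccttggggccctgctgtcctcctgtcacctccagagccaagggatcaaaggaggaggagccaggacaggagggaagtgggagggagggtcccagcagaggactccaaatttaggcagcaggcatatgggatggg
Myh7, chr14:54994627-54994876: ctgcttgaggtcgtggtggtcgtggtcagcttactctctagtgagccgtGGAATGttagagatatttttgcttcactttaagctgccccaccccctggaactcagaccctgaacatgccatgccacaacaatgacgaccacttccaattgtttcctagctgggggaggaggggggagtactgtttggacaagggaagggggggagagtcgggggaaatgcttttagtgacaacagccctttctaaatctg
Both actin windows held a CArG box, 73 to 64 bases before the start in Acta1 and 47 to 38 in Actc1, against 1.47% of 32851 windows of that length in the RefSeq table. Acta1, Myh6 and the Myh7 window held an MCAT element, as did 12.6% of all windows. TATAAA, found in 12.4% of windows, was matched only in that of Acta1. RefSeq gives Myh7 a further start downstream, at position 54994549, whose window held none of these motifs. A match is a run of letters and not a site shown to be bound.

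Each array detected between 10094 and 11545 of the 25697 probes at a detection p-value under 0.01. The mean correlation of an array with the other arrays was 0.950 for heterozygote 3 and 0.971 to 0.977 for the rest. Of 10 cardiomyocyte markers 9 had a probe, and all 9 were detected and tested. Their mean was 11.60 in heterozygote 3 and 11.89 to 12.08 in the other mice, in normalized log2 intensity. In bulk tissue fewer cells of a type and less RNA per cell cannot be told apart. Where nothing else is said, values are deposited intensities on a linear scale, and a difference is the heterozygote mean less the wild-type mean in log2 units after background correction and quantile normalization.

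All 6 probes of the 4 genes were detected on all 8 arrays with a deposited detection p-value of 0. Across the genotypes 0 of the 6 reached an adjusted p under 0.05 with limma, where 0% of the 10547 probes tested did. At an unadjusted p under 0.05 there was 1 of 6, against 493 probes or 4.67% of all those tested. In 0 of the 6 did the genotypes separate without overlap, against 2.66% of all probes. The difference was negative for 6 of 6 probes, with a median of -0.17, while 49.9% of all probes were lower in heterozygotes with a median difference of 0.00062. These 6 probes read 4 genes in the same 8 mice and are not independent.

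**Figure D1:**
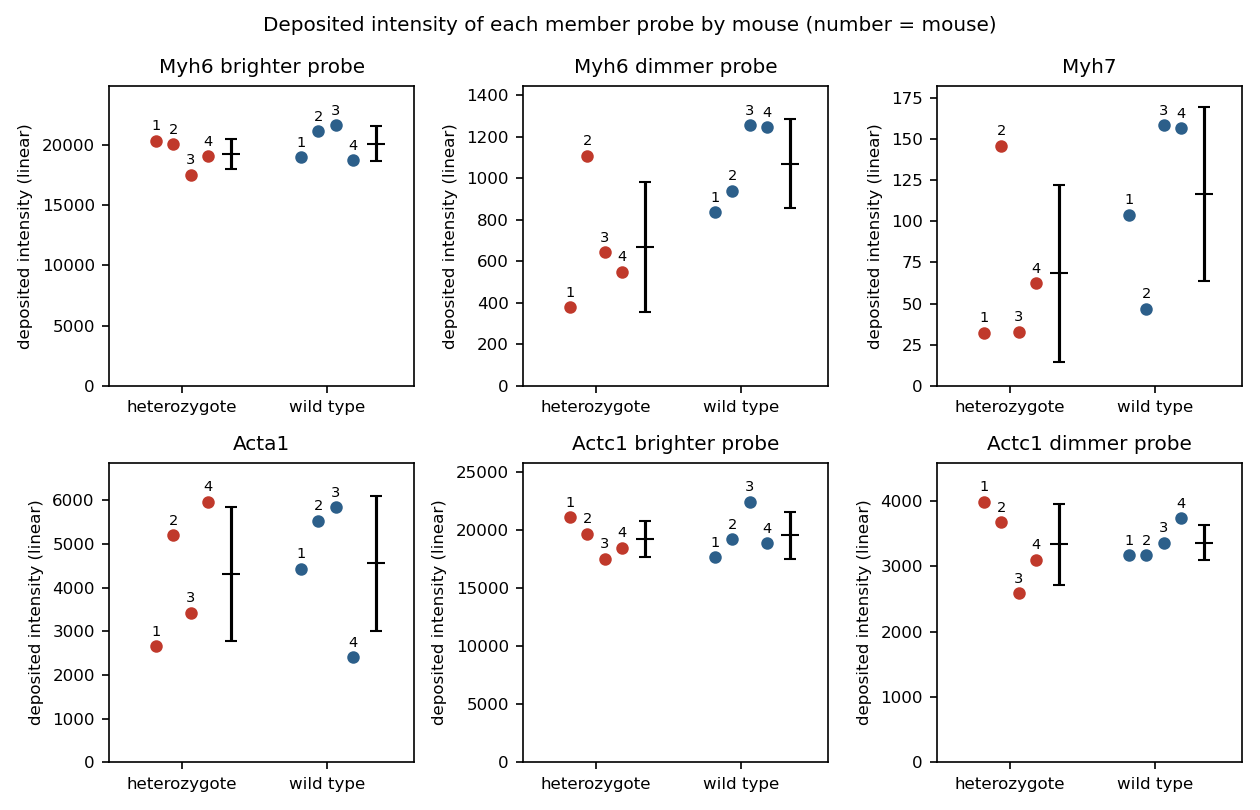
Deposited intensity (linear, from 0) of the 6 probes in each mouse, with red points for heterozygotes, blue points for wild types and black bars for mean and SD (n = 4). Myh7 and the dimmer Myh6 probe spread several-fold between mice, while the brighter probes of Myh6 and Actc1 stay within 17523 to 22422.

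Myh7, the slow chain, was uneven between mice. Its intensity was 32.3, 146, 32.9 and 62.2 in heterozygotes 1 to 4. In wild types 1 to 4 it was 104, 46.9, 158 and 157. Heterozygote 2 sat among the high wild types and wild type 2 among the low heterozygotes, so the genotypes overlapped. On the normalized log2 scale the 8 mice fell into 2 sets of 4, at 5.36 to 6.12 and at 7.33 to 7.60, each holding mice of both genotypes. The mean was 6.14 ± 0.92 (SD, n = 4) in heterozygotes and 7.03 ± 0.82 (SD, n = 4) in wild types. The difference of -0.89 had a 95% interval of -1.97 to 0.18 and did not pass the test (adjusted p = 0.947, limma). That interval runs from a level 3.91 times higher in wild types to one 0.882 times as high. Without heterozygote 3 the difference was -0.63, and without both heterozygote 3 and wild type 2, a choice made after the data were seen, it was -1.04 (95% interval -1.95 to -0.13). The unadjusted p was 0.094 (limma). Over 20 alternative settings it ran from 0.0081 to 0.23 and was under 0.05 in 4, while the adjusted p was 0.236 or more.

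Myh6, the main adult chain, was near the top of the intensity range on its brighter probe. That probe read 20331, 20064, 17523 and 19060.2 in heterozygotes 1 to 4, and 18953, 21107, 21631 and 18729 in wild types 1 to 4. The highest and lowest mouse differed 1.23-fold and the genotypes overlapped. Its rank by intensity lay between 7 and 18 of 25697 on every array, and the brightest probe of an array read 22995 to 25530.2. The difference between genotypes was -0.10 (95% interval -0.37 to 0.16, adjusted p = 0.971, limma). Normalized values ran from 14.15 to 14.43 on a scale ending at 14.61, and whether differences are compressed there was not tested.

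The dimmer Myh6 probe varied more. It read 379, 1108, 643 and 549 in heterozygotes 1 to 4, and 836, 939.6, 1255 and 1246 in wild types 1 to 4. Of the heterozygotes only number 2 reached the wild-type range. On the normalized log2 scale the means were 9.22 ± 0.72 (SD, n = 4) and 10.15 ± 0.29 (SD, n = 4). The difference of -0.93 had a 95% interval of -1.64 to -0.22. It was the 1 member probe with an unadjusted p under 0.05 (0.0149) and did not pass after adjustment over all probes (adjusted p = 0.947, limma). Leaving out heterozygote 3 gave -0.97. Over 19 alternative settings its adjusted p ran from 0.143 to 1.00, and its unadjusted p was under 0.05 in 19 of 19, from 0.00036 to 0.045.

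After normalization the 2 Myh6 probes tended to vary in the same direction over the 8 mice, by different amounts. Pearson's r was 0.731 and Spearman's rho 0.771 (exact permutation p = 0.0333 and 0.0329), which did not pass after adjustment over the 15 pairs of member probes, a family added after the data were seen (adjusted p = 0.132 and 0.21). Without the 2 mice farthest from the median of the brighter probe r was 0.881. After each genotype's mean was subtracted r was 0.504, and on deposited log2 intensity it was 0.241. The brighter minus the dimmer probe was 5.69, 4.10, 4.87 and 5.29 log2 units in heterozygotes 1 to 4. In wild types 1 to 4 it was 4.26, 4.48, 4.08 and 3.82. The absolute gap depends on how well each probe binds and is not a level of RNA. Myh6 and Myh7 are close paralogs, and probe sequences were not analysed here, so it was not examined whether a probe also reads the other gene or a subset of transcripts.

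**Figure D2:**
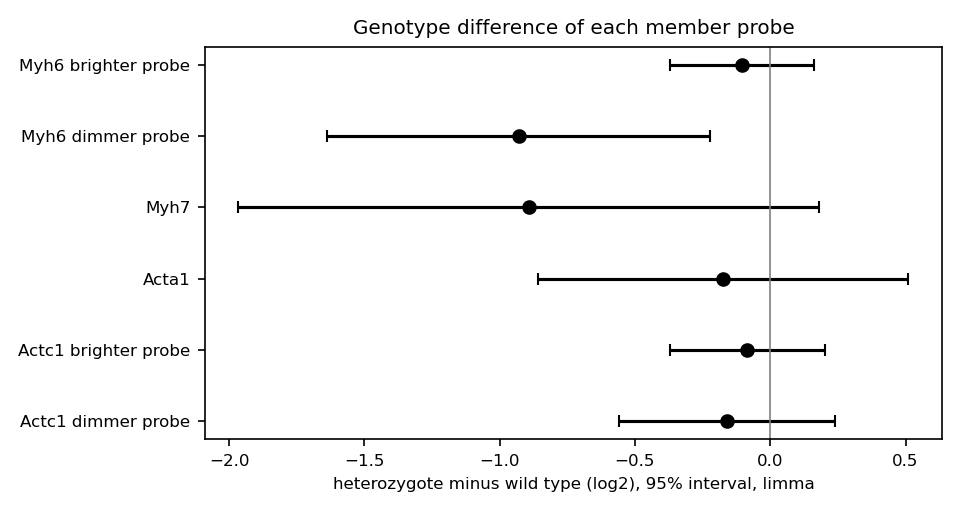
Log2 difference, heterozygote minus wild type, of each member probe (points) with 95% intervals from limma (bars, n = 4 per genotype). All 6 points lie below 0, and the interval of the dimmer Myh6 probe, -1.64 to -0.22, is the 1 that does not include 0.

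Actc1, the cardiac actin of the thin filament, was near the top of the intensity range on its brighter probe. Its brighter probe read 21095, 19669, 17525 and 18459.5 in heterozygotes 1 to 4. In wild types 1 to 4 it read 17654, 19193, 22422 and 18826, so the genotypes overlapped throughout. The difference was -0.084 (95% interval -0.37 to 0.20, adjusted p = 0.980, limma). This probe too ranked between 7 and 25 on every array, near the top of the range. The dimmer Actc1 probe read 3992, 3680.2, 2592 and 3101 in heterozygotes, and 3168, 3173, 3361 and 3742 in wild types. Its difference was -0.16 (95% interval -0.56 to 0.24, adjusted p = 0.971, limma). The gap between the 2 Actc1 probes ranged from 2.24 to 2.83 log2 units over the 8 mice.

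Acta1, the skeletal actin, varied widely within both genotypes. It read 2661, 5201, 3428 and 5972 in heterozygotes 1 to 4. In wild types 1 to 4 it read 4435, 5539, 5838 and 2409. The lowest mice were wild type 4 and heterozygote 1, and the highest was heterozygote 4. The normalized means were 11.96 ± 0.54 (SD, n = 4) and 12.13 ± 0.52 (SD, n = 4). The difference of -0.17 had a 95% interval of -0.86 to 0.51 (adjusted p = 0.984, limma). It became 0.064 without heterozygote 1 and -0.43 without wild type 4.

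The probes differed in how much they varied over the 8 mice. The SD of normalized log2 intensity was 0.94 for Myh7 and 0.71 for the dimmer Myh6 probe, larger than in 98.9% and 97.1% of the 10547 probes. Acta1, at 0.50, exceeded 91.9%. The dimmer Actc1 probe, at 0.25, was close to the median of all probes, 0.26. The brighter Actc1 and Myh6 probes, at 0.12 and 0.084, exceeded only 4.09% and 1.04% of probes.

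Isoform ratios were formed in each mouse from the brightest probe of each gene, as a difference of normalized log2 intensities. Their absolute size depends on the probes, so mice are compared with each other and not a gene with a gene. The Myh7 to Myh6 ratio was -8.57, -6.85, -8.84 and -8.03 in heterozygotes 1 to 4. In wild types 1 to 4 it was -7.10, -8.42, -6.93 and -6.69. As with Myh7 itself, heterozygote 2 and wild type 2 crossed over. The mean was -8.07 ± 0.88 (SD, n = 4) in heterozygotes and -7.28 ± 0.78 (SD, n = 4) in wild types. The difference of -0.79, with a 95% interval of -2.23 to 0.65 from the pooled SD, did not pass a two-sided exact permutation test (p = 0.257, adjusted over 2 ratios 0.514). The smallest p that 4 against 4 can give is 0.0286. With the dimmer Myh6 probe in place of the brighter one the difference was 0.038, and without heterozygote 3 it was -0.53.

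The Acta1 to Actc1 ratio was -3.02, -1.84, -2.40 and -1.69 in heterozygotes 1 to 4. In wild types 1 to 4 it was -1.84, -1.81, -1.98 and -2.95. The genotypes overlapped over almost their whole range, with 1 very low mouse in each. The means were -2.23 ± 0.60 and -2.14 ± 0.54 (SD, n = 4 each). The difference was -0.090 (95% interval -1.08 to 0.90, exact permutation p = 0.886, adjusted 0.886). It was 0.17 without heterozygote 1, 0.012 without wild type 1, 0.022 without wild type 2 and -0.36 without wild type 4.

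**Figure D3:**
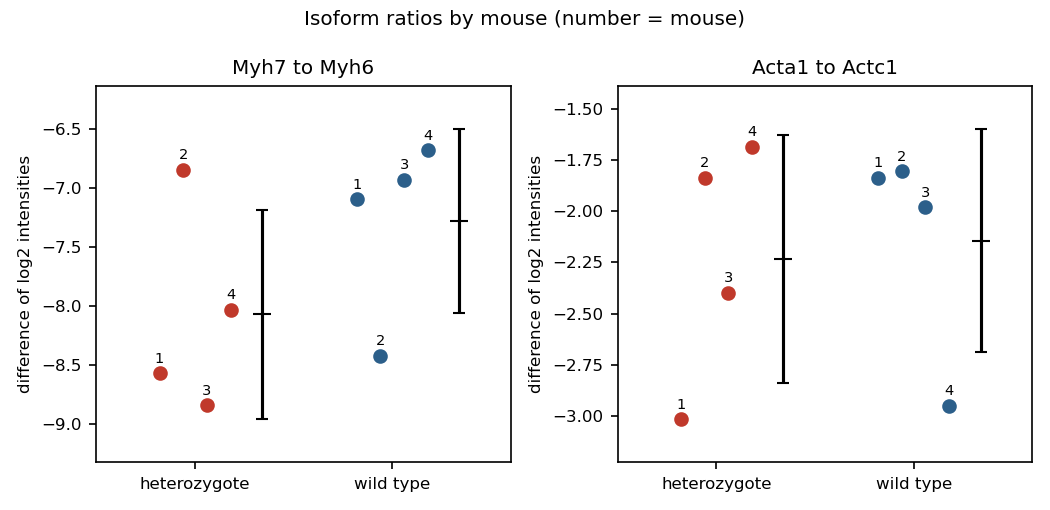
Isoform ratios in each mouse as differences of normalized log2 intensity, with mean and SD (black, n = 4). Heterozygote 2 and wild type 2 lie with the other genotype in the Myh7 to Myh6 ratio, and heterozygote 1 (-3.02) and wild type 4 (-2.95) are low in the Acta1 to Actc1 ratio.

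After normalization, mice high in Myh7 were also high on the dimmer Myh6 probe. The 4 mice with Myh7 at 7.33 to 7.60 (heterozygote 2 and wild types 1, 3 and 4) had the 4 highest values of that probe, at 10.16 to 10.46. The other 4 mice lay at 8.51 to 9.76. In deposited intensity wild type 2, low in Myh7, read 939.6 on that probe, above wild type 1 at 836. On the brighter Myh6 probe the 4 mice high in Myh7 had normalized values of 14.28 to 14.43 and the others 14.15 to 14.24. In deposited intensity the 2 sets overlapped on this probe, at 18729 to 21631 and 17523 to 21107. Because Myh7 fell into 2 separate sets of 4 mice, no r with it over all 8 mice is printed, and sets of 4 are too small for one. Over the 6 pairs of the brightest probes, 0 passed an exact permutation test of Pearson's r after adjustment, and 1 (Myh6 with Myh7) had an unadjusted p under 0.05. With cyclic loess that pair had an unadjusted p of 0.52 by the same test.

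The bright probes of Myh6 and Actc1 gave a relation that turned on the scaling. Pearson's r was 0.506 and Spearman's rho 0.60 over 8 mice (exact permutation p = 0.191 and 0.124, adjusted over 6 pairs 0.40 and 0.285). Without the 2 mice farthest from the Myh6 median, r was 0.621. With cyclic loess r was 0.883 (exact permutation, adjusted p = 0.0237), and with median scaling it was 0.955 (adjusted p = 0.000744). The 2 actins, Acta1 and Actc1, showed an r of -0.187 and a rho of 0.0602 (exact permutation p = 0.674 and 0.892, adjusted 0.674 and 0.892), and r was 0.136 without the 2 mice farthest from the Acta1 median. Acta1 with Myh6 had an r of 0.307 and a rho of 0.576 (exact permutation p = 0.453 and 0.142, adjusted 0.592 and 0.285), and r was 0.496 without the 2 farthest mice.

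**Figure D4:**
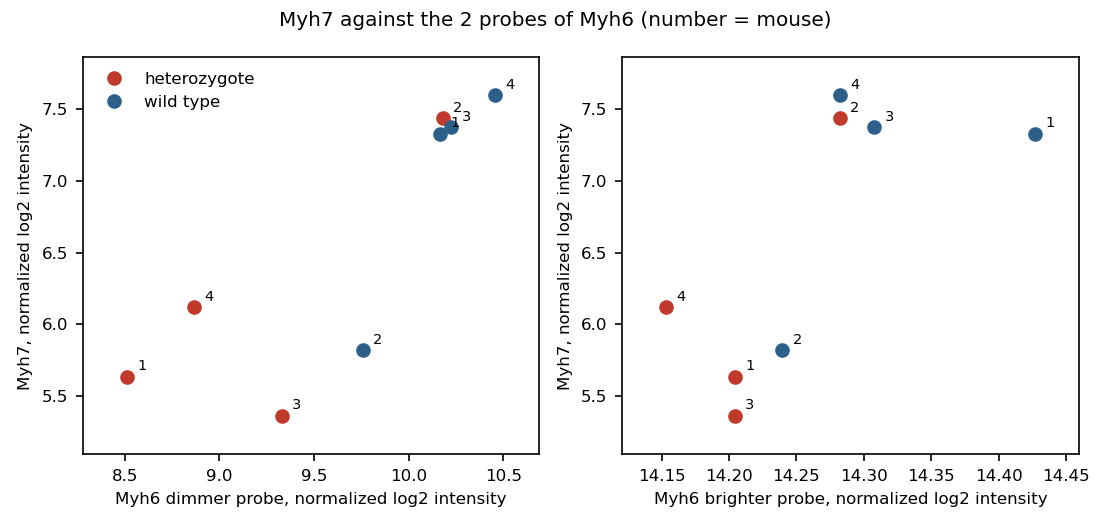
Normalized log2 intensity of Myh7 (vertical) against the dimmer (left) and brighter (right) Myh6 probe in each mouse, red for heterozygotes and blue for wild types. On the left the 4 mice with Myh7 above 7.3 cluster at 10.16 to 10.46; the right panel covers only 14.15 to 14.43.

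Markers of other tissues varied between the same mice. Of 10 atrial markers, 9 were tested, 8 of them lower in heterozygotes, and Bmp10 was detected on 0 arrays. Their summed authors' normalized intensity ran from 4069 to 38729 in heterozygotes and from 6871 to 36373 in wild types. The atrial mean was highest in heterozygote 3 (10.13) and wild type 2 (10.08), both low in Myh7, and lowest in heterozygote 2 (7.85) and wild type 3 (8.35), both high in Myh7. Wild type 4 had the highest Myh7 with an atrial mean of 9.31, close to the 9.29 of heterozygote 1, which was low in Myh7. The atrial mean of heterozygote 4, low in Myh7, was 8.64, below the 8.96 of wild type 1, which was high in Myh7. Heterozygote 3, lowest in Myh7, also stood apart in other markers. Its mean of 7 tested adipocyte markers of 9 was 10.27, against 6.16 to 9.08 in the other mice, and their summed authors' normalized intensity ran from 1404 to 29119 in heterozygotes and from 3834 to 11247 in wild types. Its mean of 2 tested thymus markers of 8 was 7.06, against 4.72 to 5.78, with sums of 25.0 to 261 in heterozygotes and 20.1 to 88.2 in wild types, and Cd4, Cd8a and Dntt were detected on 0 arrays. The 1 tested lung marker of 7, Scgb1a1, was at 13.44 in heterozygote 3 and 12.98 in wild type 1, against 4.24 to 8.97 in the other mice, and Ager was detected on 0 arrays. The part of atrial and other tissue in the Myh7 values was not tested.

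For Acta1 the tissue to set beside it is skeletal muscle. Of 13 skeletal muscle markers, 5 were tested, and Myh1, Myh2, Myh4, Actn3 and Tnnt3, which include the fast skeletal myosins, were detected on 0 arrays. The mean of the 5 ran from 6.22 to 6.59 in heterozygotes and from 6.29 to 6.69 in wild types, and their summed authors' normalized intensity from 1175 to 4208 and from 1236 to 4777. Myl1 averaged 10.83 in heterozygotes and 10.86 in wild types, and Mybpc2 6.50 and 6.29. Pvalb (5.22 and 5.34), Tnni2 (5.03 and 4.97) and Mylpf (4.75 and 4.83) lay near the low end of a scale that begins at 4.10. Mylpf was detected on only 4 of 8 arrays. The sum therefore mostly reflects Myl1. Heterozygote 1 and wild type 4, lowest in Acta1, had means of 6.48 and 6.30, inside these ranges. In summed intensity heterozygote 1 was the lowest of the 8 mice (1175) and wild type 4 (1343) the next to lowest of the wild types. Heterozygote 4 (1232) and wild type 3 (1236) lay below wild type 4 in this sum. Their deposited Acta1 intensities, 5972 and 5838, were the highest of their genotypes. The part of skeletal muscle in the Acta1 values was not tested.

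**Figure D5:**
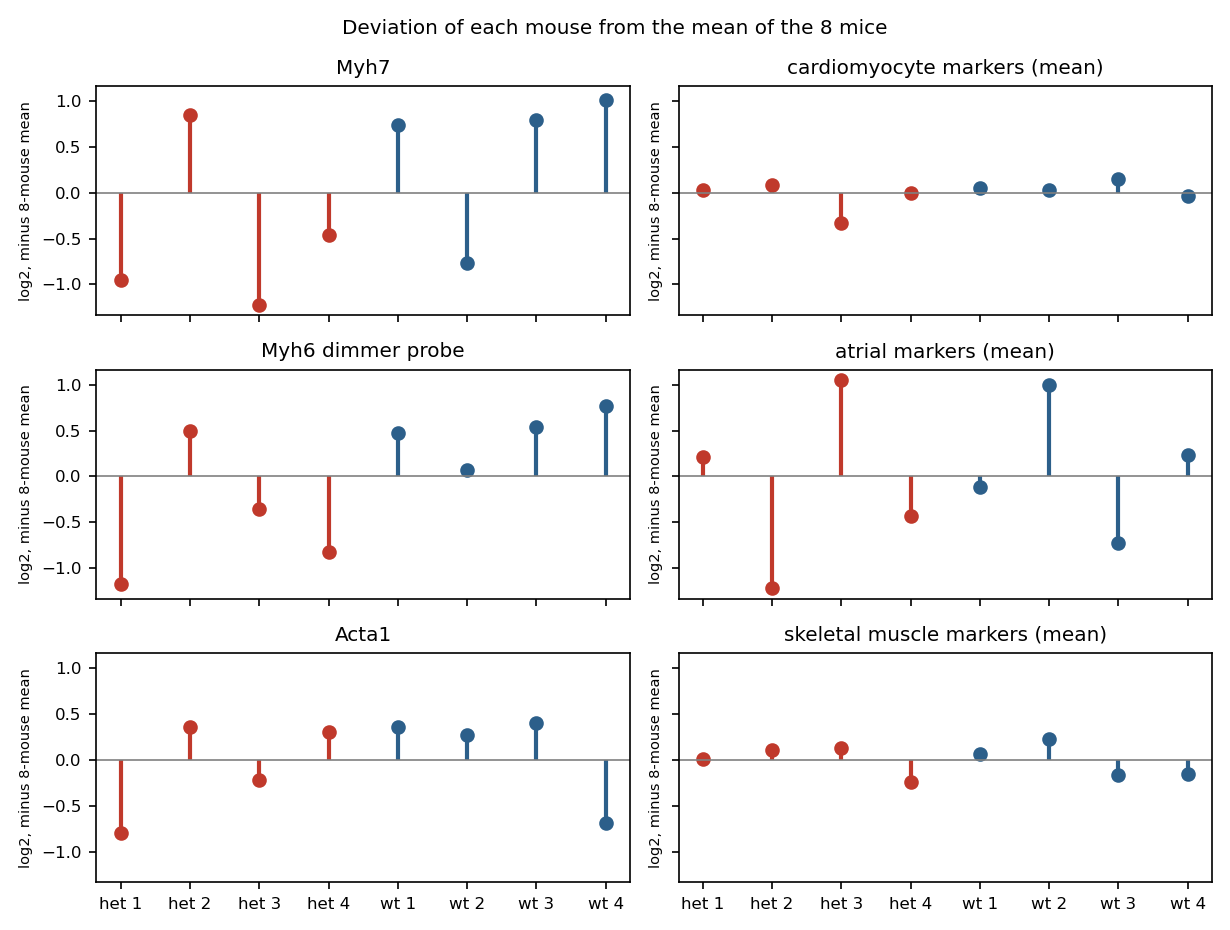
Deviation of each mouse from the mean of the 8 mice, in log2 units, for Myh7, the dimmer Myh6 probe and Acta1 (left) and for the mean of cardiomyocyte, atrial and skeletal muscle markers (right). Atrial markers peak in heterozygote 3 (10.13 before centring) and wild type 2 (10.08), where Myh7 is low. They are lower in heterozygotes 1 (9.29) and 4 (8.64), where Myh7 is low too. Cardiomyocyte markers stay between 11.60 and 12.08.

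Few other myosin heavy chains were detected. Of 11 listed genes 7 had a probe, Myh1, Myh2, Myh4 and Myh8 were detected on 0 arrays, and 3 were tested. The non-muscle chains Myh10 and Myh9 differed by -0.31 and -0.0081, and the smooth muscle chain Myh11 by -0.33, with 0 called. Among other actins, cytoplasmic Actb differed by 0.34, smooth muscle Actg2 by -0.78 and smooth muscle Acta2, matched through a synonym, by 0.061, with 0 of 3 called and Actg1 detected on 0 arrays. Smooth muscle markers (7 of 9 tested, 6 lower and 1 higher, Cnn1 detected on 0 arrays) averaged 9.60 in wild type 2 and 9.09 in heterozygote 3 against 7.75 to 8.33 in the other mice. Their summed authors' normalized intensity ran from 6556 to 16966 in heterozygotes and from 7807 to 21687 in wild types.

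Partners of myosin in the thick filament were mostly lower in heterozygotes, and 0 of 9 tested of 11 listed were called. The difference was negative for 8 and positive for 1, with a median of -0.20, against 49.9% of all probes lower and a median of 0.00062. The cardiomyocyte markers, which share Myl2, Myl3 and Mybpc3 with this list, were also lower for 7 of 9, with a median of -0.12 and 0 called. Heterozygote 3 had the lowest mean of the 8 mice on both lists, 10.75 and 11.60. Mylk3, the cardiac myosin light chain kinase, was at -0.85 (95% interval -1.36 to -0.33), Smyd1, a methyltransferase that works with myosin chaperones in the sarcomere, at -0.86 (-1.30 to -0.42), Smpx, a small muscle protein, at -0.37 and titin Ttn at -0.22. An unadjusted p under 0.05 was found for 3 of the 9, against 4.67% of all probes. Smyd1 was detected on only 5 of 8 arrays, 4 of them wild types, with means of 4.61 and 5.47 on a scale that begins at 4.10, so it passed the filter on dim probes through the wild types. Partners of actin in the thin filament, 7 tested of 11 listed, were lower for 5 and higher for 2, with a median of -0.052 and 0 called. Troponin I Tnni3 was at -0.40 (-0.80 to 0.00078), the actin nucleator Lmod2 at 0.31, the pointed-end cap Tmod1 at -0.19 and tropomyosin Tpm1 at -0.10. Lmod2 too was dim and detected on only 5 of 8 arrays, with means of 5.08 in heterozygotes and 4.77 in wild types.

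Genes that regulate the 4 members were split. Of 23 listed, 12 were tested, 7 lower and 5 higher, with a median of -0.035 and 0 called. Purb, a repressor of myosin heavy chain genes, was at 0.52 (95% interval 0.036 to 0.99), the T-box factor Tbx20 at -0.33, myocardin Myocd, the partner of serum response factor, at -0.27 and Mef2c at 0.18. Serum response factor itself, Srf, was at -0.20, and the thyroid hormone receptor Thra, which acts on Myh6 and Myh7, was at 0.20. A further 10 genes of this list, Tead1 and Thrb among them, were detected on 0 arrays.

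The genes whose pattern over the 8 mice was most like a member's were sought among 6895 genes detected on all arrays, by Pearson's r with the brightest probe. For Myh7 they were Pm20d2, Cenpb, Ssbp2 and Trim23, with differences between genotypes of -0.46, -0.21, -0.36 and -0.36 that did not pass the test. Since Myh7 fell into 2 sets, r here served only to rank the genes and is not printed. For Myh6 they were 1700029P11Rik (0.957), Lancl2 (0.928), Gtf3c6 (0.919) and Prxl2c (0.918), and r without the 2 mice farthest from the median lay between 0.594 and 0.98. For Acta1 they were Lzts3 (0.943), Tpgs1 (0.929), Gga3 (0.927) and Mtap (0.92), and r without 2 mice lay between 0.716 (Lzts3, with a rho of 0.551 over 8 mice) and 0.978. For Actc1 they were Wdr24 (0.886), Nxpe4 (0.883), Acot10 (0.882) and Cetn2 (0.877), and r without 2 mice lay between 0.477 (Nxpe4) and 0.884. The highest of 6895 values over 8 mice is high by selection, so no p is attached.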

How the data were processed

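Total RNA of 8 left ventricles was hybridised to Illumina bead arrays as biotinylated cRNA, per the labels' protocols. The deposited non-normalized table gives a linear intensity per probe, already background-subtracted since 23.0% to 27.2% of values lie below 0, and a detection p-value, per the file headers. The authors also deposited an intensity table normalized between arrays, by a method not given in the sources used here, which served as an alternative. Scanner, software, array version and chip or scan batch are not given there either, so batches were not analysed here.

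Intensities were corrected with normexp (nec of limma, offset 16, detection p-values), quantile-normalized and taken to log2, on a scale from 4.10 to 14.61. The offset pulls differences of dim probes towards 0, and quantiles remove shifts common to all probes. Probes with a detection p under 0.01 on 4 or more of the 8 arrays, 10547 in all, were fitted with lmFit and eBayes, two-sided, with Benjamini-Hochberg adjustment over all of them at 0.05. The median SE was 0.18, and 4 arrays per genotype limit precision. The fit was tested on simulated data. Ratios and correlations used exact permutation. Median scaling used the probes tested.

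Genotype and mouse number came from the sample titles, and the labels call the mice biological replicates. Members and gene lists were chosen with earlier results of these data known. All member probes are described. From each list up to 4 genes with the smallest unadjusted p are named (with Srf and Thra added after their values were seen), and for each member the 4 genes with the highest r. Array symbols were matched to RefSeq names of GRCm38.p6, also through synonyms of 1 gene. For same-numbered mice, deviations from group means correlated at -0.24, -0.276, -0.42 and 0.211 for numbers 1 to 4. The titles state no pairing by number, and 4 such values cannot exclude one, so the main tests treat the mice as unpaired. Software was limma 3.58.1 in R 4.3.3, and scipy 1.17.1 and matplotlib 3.10.9 in Python 3.11.15. The altered gene is not reported here.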

Additional observations from a re-analysis of the deposited data

Results flagged for a closer look

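Within each genotype, the highest or lowest mouse was marked where its distance from the next mouse, divided by the range of the 4, exceeded Dixon's 95% critical value of 0.829. This marked 4 of 16 groups, where chance alone marks about 0.8. The groups are not independent, since ratios reuse the probes and all share the same mice. Myh7 was 5.82 in wild type 2, against 7.33 to 7.60 in the other wild types. Acta1 was 11.36 in wild type 4 (12.32 to 12.45 in the others), and the Acta1 to Actc1 ratio of that mouse was -2.95 (-1.98 to -1.81). The brighter Actc1 probe was 14.04 in heterozygote 4 (14.22 to 14.26 in the others), near the top of the scale. In deposited intensity that mouse was not the lowest heterozygote, at 18459.5 against 17525 in heterozygote 3.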

How the results depend on the processing

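The count of probes called between genotypes stayed at 0 in 19 of 20 alternatives, with 300 (without wild type 3) to 1553 (array weights) probes at an unadjusted p under 0.05. It was 1 (Slc4a1, named after its values were seen) with heterozygote 3 and wild type 2 left out. The differences of the 6 member probes kept their sign, uncalled, in every alternative run except Acta1, which ran from -0.43 to 0.064 with 1 mouse left out and turned only without heterozygote 1. The ranges with 1 mouse left out were -1.32 to -0.63 for Myh7 and -1.25 to -0.69 for the dimmer Myh6 probe. Over the other alternatives Myh7 ran from -1.11 to -0.64. The Myh7 to Myh6 ratio ran from -1.20 to -0.53 with 1 mouse left out, and turned to 0.038 with the dimmer Myh6 probe. The Acta1 to Actc1 ratio, near 0, ran from -0.36 to 0.17 with 1 mouse left out and was 0.077 with both mice left out. Of 6 pairs of members, 1 was called with cyclic loess and 1 with median scaling (Myh6 with Actc1). Acta1 with Actc1 turned to 0.187 with median scaling and 0.0602 by Spearman. With the replicate block the ratio differences were -0.79 and -0.090 as before (exact sign flips, p = 0.50 and 0.875) and 0 probes were called. With so few mice, exact sign flips cannot give a p under 0.05, and the titles state no pairing by mouse number. The causes were not tested. The brighter probes of Myh6 and Actc1 lay near the top of the range, and whether differences are compressed there was not tested. Myh7 fell to 5.36 on a scale that begins at 4.10.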
